A study of Caenorhabditis elegans with 12 samples.

Results

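Moulting is the shedding of the old cuticle at the end of each larval stage of Caenorhabditis elegans, after the epidermis has secreted a new apical extracellular matrix beneath it. Nuclear hormone receptors and zinc-finger factors of the epidermis drive a wave of gene expression that recurs with every larval stage, and matrix proteins, proteases and protease inhibitors are made at set points of that wave. The 8 genes described here were taken by name: the regulators nhr-23, nhr-25 and bed-3, the moulting genes mlt-10 and mlt-11, and the apical matrix genes noah-1, noah-2 and fbn-1. They are 8 of the 17118 genes that the array measures with a probe set of a single gene symbol, and 16 such probe sets covered them. A probe set was tested when its deposited log2 value reached 4 on 3 or more arrays. Of the 8 genes, 7 passed through 13 probe sets, and nhr-25 was too dim to test.

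RNA was measured in 12 pools of whole animals on Affymetrix arrays, with 3 pools for each of 4 strain labels. The label crh-1 null stands for the strain crh-1 (nn3315), altered in the gene of the transcription factor CREB. The label tax-6 null stands for RB1667, which carries tax-6(ok2065) in the gene of the catalytic subunit of calcineurin, a calcium-dependent phosphatase. The label aak-2 o/e stands for AGD383, an N2 animal with the transgene uthIs202, which fuses residues 1 to 321 of AAK-2 (an AMPK alpha subunit, part of a kinase that senses cellular energy) to Tomato under the aak-2c promoter, with the unc-54 3'UTR and the marker rol6; their source name says aak-2 null instead. The marker rol6, of the rol class of body-shape collagens, comes with the AAK-2 fusion in every aak-2 o/e pool. Effects of the marker and of the fusion cannot be told apart in this design. WT is the laboratory strain N2. All animals were L4 larvae, the last larval stage, in pools of 3000. Freezing times were set to allow for strains that develop at unequal speed, and their hours are not stated in the labels. Pools of a strain were prepared on separate days, so the spread between arrays holds biological and technical variation together.

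All values are deposited log2 values, and errors are the SD over n = 3 arrays for a level or the SE from limma for a change. Array medians lay between 5.32 and 5.45, and the r between arrays of the same strain was 0.990 to 0.998 over all probe sets, with tax-6 null replicate 1 the least like its strain. The number of arrays limited the precision. The targeted genes did not settle the labels, because where their probes lie relative to the alleles and the transgene is not given. The tested probe set of crh-1 was not low but higher than WT in the arrays so labelled, at 8.62 ± 0.19, against 7.16 ± 0.09 in WT. That of tax-6 was too dim to test, at 3.24 in the arrays labelled tax-6 null and 3.71 in WT. Of the aak-2 probe sets, 1 was lower in the arrays with the label aak-2 o/e, at 6.44 ± 0.15, against 6.91 ± 0.10 in WT. The strain names below are therefore those on the array labels, and every direction is that of the arrays so labelled.

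The 7 tested genes fell into 2 broad patterns, which nhr-23 followed only in part. The regulator nhr-23 and the fibrillin-like gene fbn-1 stood highest in the arrays labelled crh-1 null and above WT in tax-6 null, while bed-3 and mlt-10 were lowest in crh-1 null and also below WT in tax-6 null. The matrix genes noah-1 and noah-2 and the protease inhibitor gene mlt-11 did not pass against WT in crh-1 null and stood below WT in the arrays of tax-6 null and of aak-2 o/e, noah-1 past the threshold by 1 of its 2 probe sets only. The direction of nhr-23 in tax-6 null differed between its probe sets. By its brighter probe set nhr-23 was also below WT in aak-2 o/e (-0.45 ± 0.13), where fbn-1, bed-3 and mlt-10 did not pass. That nhr-23 call did not hold in every alternative fit. Pools of whole animals do not tell fewer cells of a type from less RNA per cell. At an adjusted p below 0.05, crh-1 null differed from WT in 4 of the 7 genes, where 20.6% of all 10365 genes tested did. Of these 2 were higher, against a background of 9.88%, and 2 lower, against 10.7%. In tax-6 null 6 of 7 passed, beside 45% of all genes. Here 2 were higher (background 18.7%) and 4 lower (background 26.3%). In aak-2 o/e 3 of 7 passed, beside 33.5% of all genes. None of the 3 was higher (background 14.2%) and all were lower (background 19.3%). Over 21 alternative fits, 12 of them without a single array, the counts were 4 to 5 in crh-1 null, 4 to 6 for tax-6 null and 2 to 4 for aak-2 o/e. Because the genes were picked with results of these arrays known, the counts describe them and are no test of the set.

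**Figure D1:**
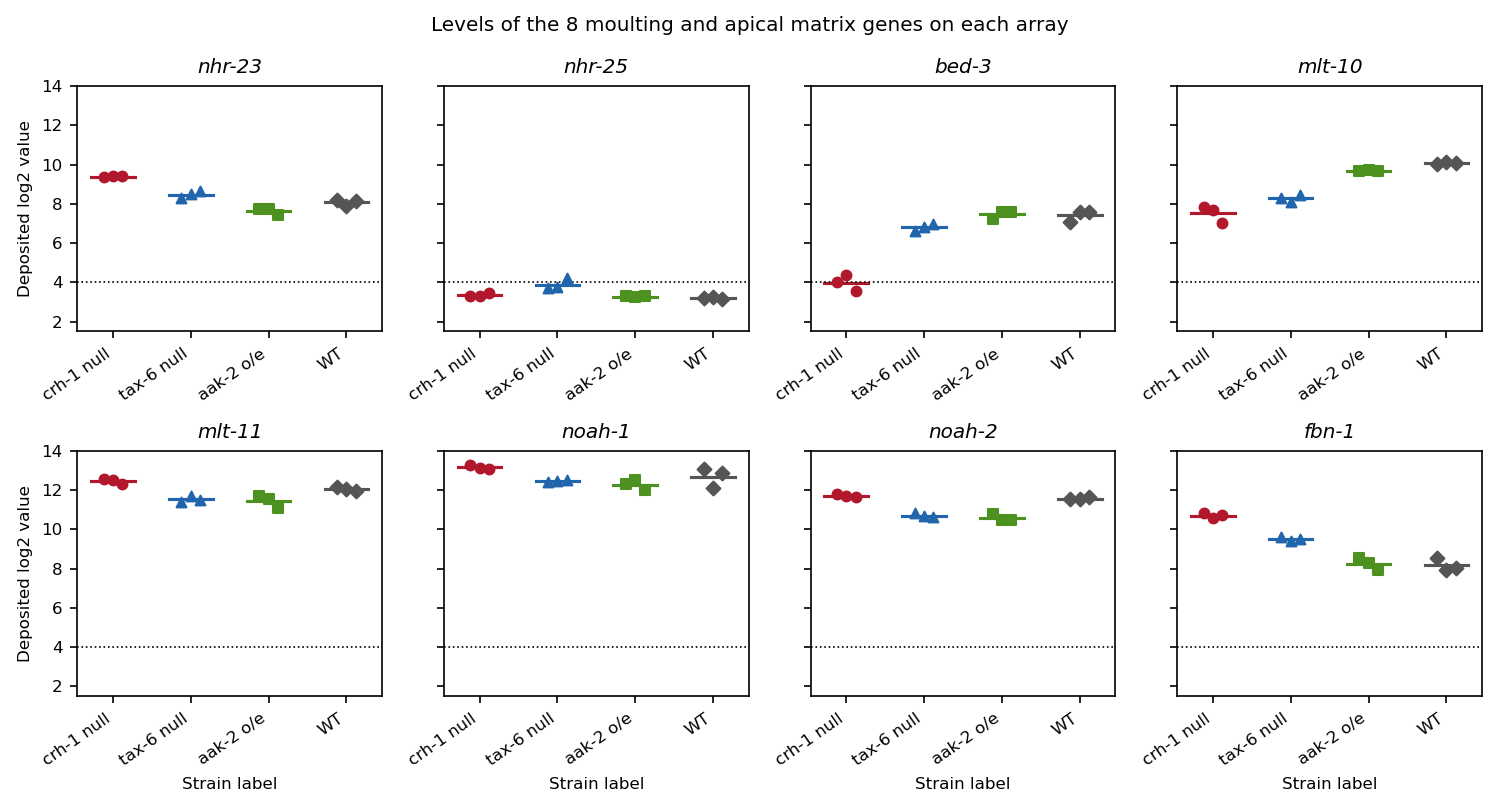
Deposited log2 value (vertical axis) of each gene's brightest probe set on each of the 12 arrays, by strain label, with a bar at the mean of 3 arrays and a dotted line at the log2 value of 4 used for the filter. The crh-1 null points lie at the top for nhr-23 and fbn-1 and at the bottom for bed-3 and mlt-10, and nhr-25 stays near or below the dotted line in all strains.

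Among the regulators, nhr-23 encodes a nuclear hormone receptor related to mammalian ROR that is required for larval moulting. Its brighter probe set, 175831_s_at, read 9.35, 9.41 and 9.41 in crh-1 null, 8.28, 8.49 and 8.64 in tax-6 null and 7.73, 7.75 and 7.43 in aak-2 o/e, against 8.19, 7.91 and 8.14 in WT. No strain's range overlapped another's, and the order ran from crh-1 null through tax-6 null and WT down to aak-2 o/e. Ranges that do not overlap with WT were common on these arrays, at 43% of genes for crh-1 null, 54.5% for tax-6 null and 52.5% for aak-2 o/e. The change against WT was 1.31 ± 0.13 in crh-1 null (2.48-fold, adjusted p = 1.19e-05), 0.39 ± 0.13 in tax-6 null (adjusted p = 0.0295) and -0.45 ± 0.13 in aak-2 o/e (adjusted p = 0.0208). Every neighbouring pair in this order passed a test of its difference, crh-1 null over tax-6 null by 0.92 ± 0.13 (adjusted p = 0.000181).

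The smaller nhr-23 changes were not firm. A dimmer probe set, 194130_s_at, reached 4 on 5 arrays only and read 4.88 ± 0.28 in crh-1 null, 3.70 ± 0.32 for tax-6 null and 3.84 ± 0.09 for aak-2 o/e, against 4.30 ± 0.33 in WT. All 3 tax-6 null arrays lay below 4, and it put them below WT, by at least 1.23-fold (adjusted p = 0.0303), the opposite of the brighter probe set. It put crh-1 null above WT by 0.57 ± 0.20, which did not pass (adjusted p = 0.0673). The mean of both probe sets gave -0.10 for tax-6 null (adjusted p = 0.561), so the direction of nhr-23 in that strain is unsettled. The tax-6 null call of the brighter probe set ended without tax-6 null replicate 2 or 3 (adjusted p = 0.0654 and 0.116) or WT replicate 2 or 3 (adjusted p = 0.118 and 0.0505), and with only these strains fitted (adjusted p = 0.0674). The aak-2 o/e call ended without aak-2 o/e replicate 3 (adjusted p = 0.0796), WT replicate 1 (adjusted p = 0.0817) or WT replicate 3 (adjusted p = 0.0674). The rise of nhr-23 in crh-1 null kept its call in all 21 alternatives.

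The other nuclear receptor, nhr-25, belongs to the SF-1 and FTZ-F1 family and acts in moulting and epidermal development. Its brighter probe set, 175663_at, read 3.29, 3.29 and 3.44 in crh-1 null, 3.70, 3.75 and 4.20 in tax-6 null and 3.29, 3.24 and 3.29 in aak-2 o/e, against 3.19, 3.27 and 3.17 in WT. Only 1 array, of tax-6 null, reached 4, and the tax-6 null arrays lay above all others. With no filter on dim probe sets the tax-6 null difference passed (adjusted p = 0.00345 over 22548 probe sets), but the values lie so close to the table's minimum of 2.11 that its size is not given. The other probe set stood at that minimum on all 12 arrays.

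The gene bed-3 encodes a BED-type zinc-finger protein required for moulting and expressed in a cycle with it. It showed the largest change of the 7 tested genes. The arrays labelled crh-1 null read 4.02, 4.40 and 3.54, those labelled tax-6 null 6.62, 6.83 and 6.96 and those labelled aak-2 o/e 7.25, 7.58 and 7.60, against 7.05, 7.58 and 7.59 in WT. The crh-1 null arrays were far below all others, the tax-6 null arrays lay just below WT, and aak-2 o/e overlapped WT. The crh-1 null mean of 3.99 ± 0.43 lay at the limit of 4, so the fall of bed-3 is given as a bound, at least 9.64-fold with the array below 4 set to 4. The fitted change was -3.42 ± 0.22 (adjusted p = 3.19e-07). Against tax-6 null the fitted change was -2.82 ± 0.22 (adjusted p = 1.17e-06), with the same limit. The strain means of bed-3 spanned 3.49, more than in 96.9% of genes, where the median gene spanned 0.69. The lowest of these means, that of crh-1 null, lay at the limit, so the span is not exact.

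In tax-6 null the change of bed-3 was -0.60 ± 0.22 (adjusted p = 0.0388), a call that ended in 7 of 21 alternatives. They were no filter on dim probe sets (adjusted p = 0.105), array weights (adjusted p = 0.0894), and leaving out tax-6 null replicate 1 or 2 (adjusted p = 0.105 and 0.0698), WT replicate 2 or 3 (adjusted p = 0.127 and 0.126) or crh-1 null replicate 1 (adjusted p = 0.0524). The difference of aak-2 o/e from WT was 0.07 ± 0.22 with a 95% interval of -0.40 to 0.54, and -0.11 without WT replicate 1.

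The gene mlt-10 encodes a secreted proline-rich protein whose promoter is a common reporter of the moulting cycle, because its activity peaks once in each larval stage. Its brighter probe set, 171945_x_at, read 7.85, 7.67 and 7.02 in crh-1 null, 8.32, 8.10 and 8.45 in tax-6 null and 9.68, 9.74 and 9.67 in aak-2 o/e, against 10.02, 10.15 and 10.07 in WT. The arrays labelled crh-1 null and those labelled tax-6 null lay below every aak-2 o/e and WT array. The change was -2.57 ± 0.18 in crh-1 null (5.92-fold lower, adjusted p = 7.97e-07) and -1.79 ± 0.18 in tax-6 null (3.46-fold lower, adjusted p = 1.01e-05). The other probe set, 181793_at, gave larger falls, -3.10 ± 0.27 and -2.37 ± 0.27. In aak-2 o/e the change was -0.38 ± 0.18 by the brighter probe set and did not pass (adjusted p = 0.128). It passed with only these strains fitted (adjusted p = 0.0137) or when replicate 3 of crh-1 null was left out (adjusted p = 0.028). The SD of the arrays was 0.43 in crh-1 null and 0.07 in WT. The difference between crh-1 null and tax-6 null was -0.78 ± 0.18, crh-1 null lower (adjusted p = 0.00534), and it did not pass by the other probe set (-0.73 ± 0.27, adjusted p = 0.0517).

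Secreted protease inhibitors of the Kunitz type keep the proteolysis of the old and new cuticle in check, and mlt-11 encodes one. Its brightest probe set, 171847_s_at, read 12.59, 12.53 and 12.32 in crh-1 null, 11.41, 11.70 and 11.51 in tax-6 null and 11.71, 11.55 and 11.11 in aak-2 o/e, against 12.17, 12.06 and 11.96 in WT. The arrays labelled tax-6 null and those labelled aak-2 o/e overlapped each other and lay below WT, while crh-1 null lay just above it. Changes against WT were -0.53 ± 0.15 in tax-6 null (adjusted p = 0.0154) and -0.61 ± 0.15 in aak-2 o/e (adjusted p = 0.00967). In crh-1 null it was 0.42 ± 0.15, which did not pass (adjusted p = 0.0824).

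The other tested mlt-11 probe sets gave -0.53 and -0.80 in tax-6 null and -0.71 and -0.87 for aak-2 o/e, all past the threshold. In crh-1 null they gave 0.30 and 0.23, neither past it. A further probe set stood at the lowest level throughout. The tax-6 null call of the brightest probe set ended with quantile normalization (adjusted p = 0.051) and without WT replicate 1 (adjusted p = 0.0585). The crh-1 null difference passed without aak-2 o/e replicate 3 (adjusted p = 0.0331), with array weights (adjusted p = 0.0223) and with only these strains fitted (adjusted p = 0.0286). Between crh-1 null and tax-6 null the difference was 0.94 ± 0.15 (adjusted p = 0.000533). Between tax-6 null and the aak-2 o/e arrays it was 0.09 with a 95% interval of -0.25 to 0.42, and -0.09 without aak-2 o/e replicate 3.

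The matrix genes noah-1 and noah-2 encode zona pellucida (ZP) domain proteins of the embryonic and larval apical matrix, related to Drosophila NompA. The single probe set of noah-2, 181136_s_at, read 11.79, 11.71 and 11.63 in crh-1 null, 10.82, 10.68 and 10.62 in tax-6 null and 10.78, 10.50 and 10.48 in aak-2 o/e, against 11.54, 11.53 and 11.64 in WT. It separated the strains into a high pair, crh-1 null with WT, and a low pair, tax-6 null with aak-2 o/e. The change was -0.86 ± 0.11 in tax-6 null (1.82-fold lower, adjusted p = 6.48e-05) and -0.99 ± 0.11 in aak-2 o/e (1.98-fold lower, adjusted p = 3.46e-05). Within the high pair crh-1 null differed from WT by 0.14 with a 95% interval of -0.10 to 0.38, and within the low pair tax-6 null differed from aak-2 o/e by 0.13 with an interval of -0.12 to 0.37. Neither noah-2 fall lost its call in any of the 21 alternatives.

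For noah-1 the probe sets gave different calls. The brighter, 174240_at, read 13.30, 13.12 and 13.06 in crh-1 null, 12.40, 12.45 and 12.52 in tax-6 null and 12.31, 12.51 and 12.03 in aak-2 o/e, against 13.06, 12.12 and 12.85 in WT. The WT arrays spread widely through replicate 2, and no strain passed against WT. The other probe set, 183775_at, read 12.20 ± 0.20 in crh-1 null, 11.09 ± 0.09 for tax-6 null and 10.95 ± 0.28 for aak-2 o/e, against 11.93 ± 0.18 in WT. By it noah-1 was lower in tax-6 null (-0.85 ± 0.16, adjusted p = 0.001) and in aak-2 o/e (-0.99 ± 0.16, adjusted p = 0.000479). Without WT replicate 2 the brighter probe set passed too, at -0.50 in tax-6 null (adjusted p = 0.0238) and -0.68 in aak-2 o/e (adjusted p = 0.0072), and the mean of both probe sets passed in both strains (adjusted p = 0.0218 and 0.00759). In crh-1 null the brighter probe set was 0.48 above WT (adjusted p = 0.144), or 0.67 without WT replicate 1 (adjusted p = 0.0496). It stood above tax-6 null by 0.70 ± 0.21 (adjusted p = 0.0199), and not past the threshold without crh-1 null replicate 1 (adjusted p = 0.0731) or with no filter (adjusted p = 0.0633).

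A fibrillin-like matrix protein with EGF-like repeats, FBN-1 helps the epidermis and pharynx keep their shape when the old cuticle detaches. The brighter probe set of fbn-1, 174252_at, read 10.82, 10.59 and 10.71 in crh-1 null, 9.59, 9.42 and 9.49 in tax-6 null and 8.53, 8.30 and 7.92 in aak-2 o/e, against 8.55, 7.94 and 8.05 in WT. The arrays labelled crh-1 null and those labelled tax-6 null lay above every WT array, crh-1 null above tax-6 null, while aak-2 o/e overlapped WT. The rise was 2.53 ± 0.18 in crh-1 null (5.76-fold, adjusted p = 8.11e-07) and 1.32 ± 0.18 in tax-6 null (2.49-fold, adjusted p = 9.93e-05), and crh-1 null exceeded tax-6 null by 1.21 ± 0.18 (adjusted p = 0.00026). The other probe set, 181745_at, gave 3.01 ± 0.25 (8.07-fold) and 1.01 ± 0.25 (2.01-fold). In aak-2 o/e the difference from WT was 0.07 with a 95% interval of -0.32 to 0.46, and the other probe set gave -0.45 ± 0.25 (adjusted p = 0.182). The sign by the brighter probe set turned without aak-2 o/e replicate 1 (-0.07) or WT replicate 2 (-0.05).

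**Figure D2:**
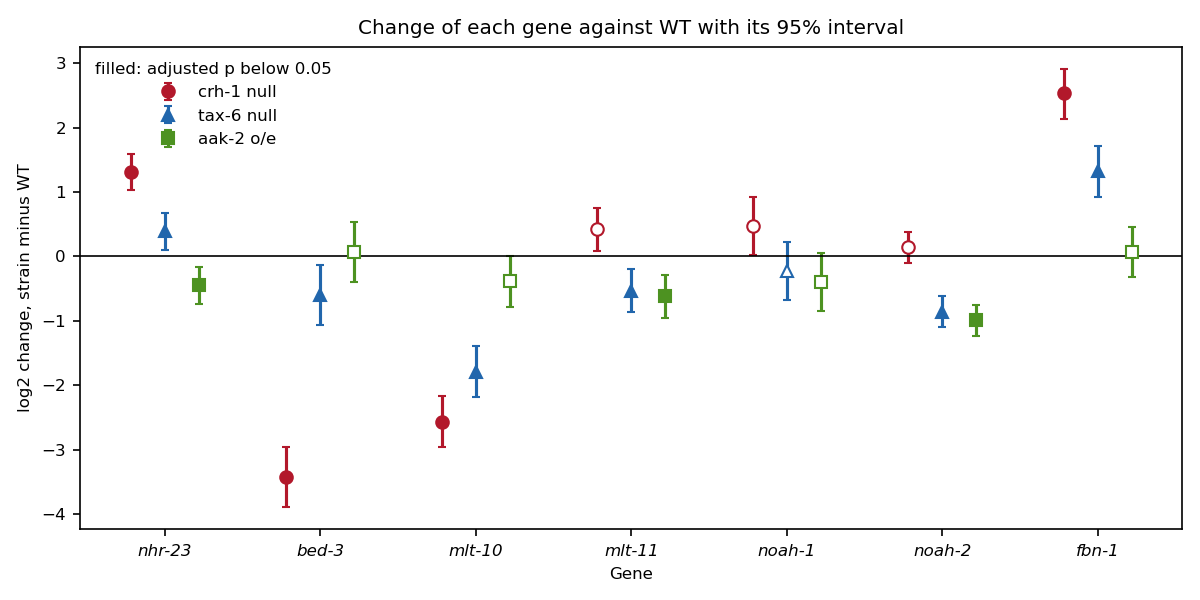
Change of the brightest probe set of each of the 7 tested genes (log2 scale, strain minus WT), with its 95% interval, filled where the adjusted p was below 0.05. The crh-1 null points run from -3.42 for bed-3 to 2.53 for fbn-1, while the aak-2 o/e points lie between -0.99 and 0.07.

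**Figure D3:**
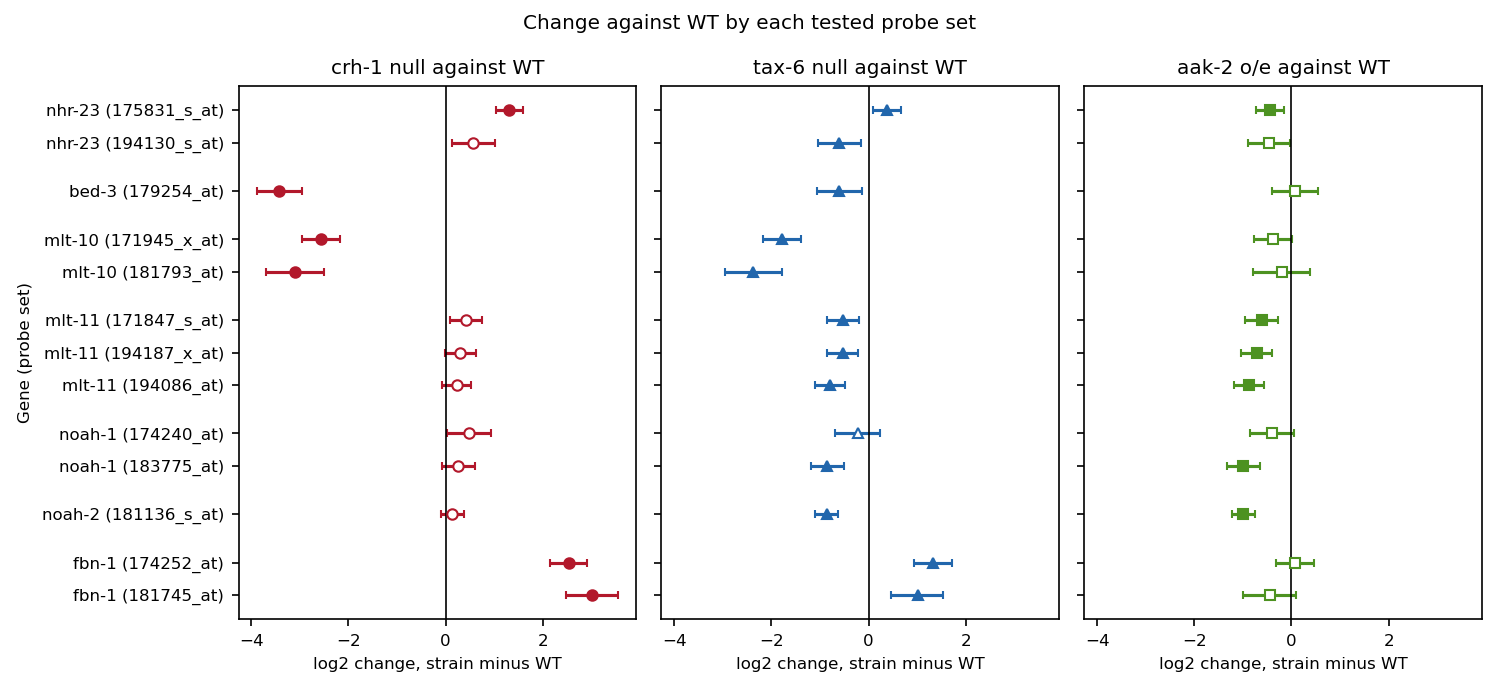
Change against WT (log2 scale, with its 95% interval) by each of the 13 tested probe sets of the 7 genes, a panel per strain label, filled where the adjusted p was below 0.05. Probe sets of a gene point the same way except for nhr-23 in tax-6 null (0.39, and -0.60 by a probe set below 4 on all tax-6 null arrays) and fbn-1 in aak-2 o/e (0.07 and -0.45).

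Direct contrasts set the altered strains against each other. All 7 genes differed between crh-1 null and tax-6 null, 5 higher and 2 lower in crh-1 null, where 37.9% of all genes passed (21.4% higher and 16.6% lower). All 7 also differed between crh-1 null and aak-2 o/e in the same directions, against 46.4% of all genes (27.4% higher and 19% lower). Here the changes were 2.45 ± 0.18 for fbn-1, 1.75 ± 0.13 for nhr-23, 1.13 ± 0.11 for noah-2, 1.03 ± 0.15 for mlt-11 and 0.88 ± 0.21 for noah-1, with -2.18 ± 0.18 for mlt-10 and -3.49 ± 0.22 for bed-3. These contrasts share the crh-1 null arrays. In those arrays bed-3 lay at the limit of 4, so its changes here carry the limit given above. Between tax-6 null and the aak-2 o/e arrays 4 of 7 passed, against 50.1% of all genes (27.6% higher and 22.4% lower): nhr-23 (0.83 ± 0.13) and fbn-1 (1.25 ± 0.18) were higher in tax-6 null, and mlt-10 (-1.41 ± 0.18) and bed-3 (-0.68 ± 0.22) lower. For nhr-23 the dimmer probe set gave -0.14 ± 0.20, with both strains below 4, and the mean of both probe sets 0.35 (adjusted p = 0.05). The bed-3 call ended without tax-6 null replicate 1 (adjusted p = 0.0645), or replicate 2 or 3 of aak-2 o/e (adjusted p = 0.065 and 0.069), and with no filter (adjusted p = 0.0648).

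Other genes that followed each member over the 12 arrays were sought by Pearson's r among 1831 named genes whose strain means spanned at least 1. Arrays of a strain share its level, so r mostly reflects the 4 strain means and is given as a description. Nearest to bed-3 were the acyl-CoA dehydrogenase gene acdh-6 (r = 0.993) and the collagen gene dpy-5 (r = 0.991). Nearest to mlt-10 were the collagen gene sqt-2 (r = 0.992) and the hedgehog-related gene wrt-6 (r = 0.988). For fbn-1 they were the matrix metalloprotease gene zmp-3 (r = 0.979) and idpp-14 (r = 0.978), and for nhr-23 ncam-1 (r = 0.978) and acl-4 (r = 0.975). The lipocalin gene lpr-3 followed mlt-11 (r = 0.951), after grsp-4 (r = 0.955). For noah-2 they were rml-4 (r = 0.953) and ebax-1 (r = 0.945), and for noah-1 sym-2 (r = 0.905) and let-4 (r = 0.893), a leucine-rich repeat gene of the apical matrix.

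Other regulators of moulting and of developmental timing gave changes between -0.94 and 0.93 over the 3 strains. Of 14 listed 11 were tested, and of these 2 rose and 1 fell in crh-1 null, 3 rose and 4 fell in tax-6 null, and 1 rose and 5 fell in aak-2 o/e. The shares called were 27.3%, 63.6% and 54.5%, beside 20.6%, 45% and 33.5% of all genes in the same order of strains. Median changes were 0.05, -0.21 and -0.43, beside -0.01, -0.09 and -0.15 over all genes. The period homologue lin-42, whose own level cycles with the moults, fell in all 3 strains: it read 8.43 in crh-1 null, 8.30 for tax-6 null and 8.66 for aak-2 o/e, against 9.19 in WT (adjusted p = 0.00319, 0.000526 and 0.0188). The GATA factor gene elt-3 of the epidermis rose in crh-1 null (0.78 ± 0.21, adjusted p = 0.023) and tax-6 null (0.91 ± 0.21, adjusted p = 0.00447) and fell in aak-2 o/e (-0.68 ± 0.21, adjusted p = 0.0292). The elt-3 call in crh-1 null ended without replicate 2 or 3 of crh-1 null (adjusted p = 0.0842 and 0.0784), without replicate 2 or 3 of WT (adjusted p = 0.0855 and 0.0753) and with no filter (adjusted p = 0.0808). The membrane-bound factor gene myrf-1 rose in crh-1 null (0.43 ± 0.11, adjusted p = 0.0129), not past the threshold without crh-1 null replicate 3 (adjusted p = 0.0645) or WT replicate 2 (adjusted p = 0.0598). In aak-2 o/e the related genes myrf-1 (-0.79 ± 0.11) and myrf-2 (-0.94 ± 0.12) fell with lin-29 (-0.91 ± 0.19), a zinc-finger gene of the larval-to-adult switch, while elt-1 rose (0.93 ± 0.11). The count of rises in crh-1 null was 0 when replicate 2 of WT or replicate 3 of crh-1 null was left out, and 1 when replicate 3 of WT or replicate 2 of crh-1 null was. It was also 1 with no filter. In tax-6 null 2 fell without WT replicate 1 or 3 or tax-6 null replicate 2, and with only these strains fitted. In aak-2 o/e 3 fell without WT replicate 2 or aak-2 o/e replicate 3, and 8 without tax-6 null replicate 1 or with array weights. The 3 were myrf-1, myrf-2 and lin-29, so the aak-2 o/e falls of lin-42 and elt-3 lost their calls in both of those fits.

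Among genes of sterol uptake and membrane traffic that moulting requires, every change past the threshold was a fall. Of 11 tested, 7 fell in crh-1 null, 9 for tax-6 null and 5 for aak-2 o/e, and 0 rose in any strain. These falls were 63.6%, 81.8% and 45.5% of the genes tested, beside 10.7%, 26.3% and 19.3% of all genes. Rises were 9.88%, 18.7% and 14.2% of all genes. Medians of the list were -0.56, -0.82 and -0.38, beside -0.01, -0.09 and -0.15 over all genes. The steepest falls among the 11 were the Patched gene ptc-3 in crh-1 null (-1.82 ± 0.13) and mlt-4 in tax-6 null (-1.58 ± 0.16). The gene mlt-4 encodes an ankyrin-repeat partner of the NEKL kinases. The Dispatched-related gene che-14 changed by -1.45 ± 0.19 in crh-1 null, -1.49 ± 0.19 for tax-6 null and -0.73 ± 0.19 for aak-2 o/e, the last not past the threshold without aak-2 o/e replicate 1 (adjusted p = 0.0517). Kinase gene nekl-2 fell in crh-1 null (-1.13 ± 0.14) and tax-6 null (-0.96 ± 0.14). The ankyrin-repeat gene mlt-3 fell most in aak-2 o/e (-0.92 ± 0.12). The megalin-like receptor gene lrp-1 did not pass in any strain, with changes of -0.40, -0.18 and 0.00.

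Apical matrix genes beyond the members moved both ways. Of 34 tested among 52 listed, 17 rose and 12 fell in crh-1 null, while 8 rose and 16 fell in tax-6 null. For aak-2 o/e 6 rose and 12 fell. The shares called were 85.3%, 70.6% and 52.9%, beside 20.6%, 45% and 33.5% of all genes in the same order of strains. Rises were 9.88%, 18.7% and 14.2% of all genes, and falls 10.7%, 26.3% and 19.3%. Medians of the list were 0.43, -0.19 and -0.36, beside -0.01, -0.09 and -0.15 over all genes. The ZP-domain gene let-653 of the transient pre-cuticle read 9.58, 9.56 and 9.63 in crh-1 null, against 7.77, 7.21 and 7.69 in WT, a rise of 2.03 ± 0.22 (adjusted p = 2.64e-05). With it rose the cuticlin-like gene cutl-6 (2.22 ± 0.17). In the same arrays hog-1, a gene with a hedgehog-type Hint domain, changed by -2.80 ± 0.30 and mlt-9 by -1.97 ± 0.18. In tax-6 null the cuticlin gene cut-1 read 6.17, 7.96 and 5.32, while all 9 other arrays lay between 3.37 and 3.39, at least 5.6-fold higher than in WT, or at least 3.36-fold without tax-6 null replicate 2. The EGF-repeat gene mup-4, whose protein ties the epidermis to the cuticle, rose in tax-6 null (2.05 ± 0.25) and also in aak-2 o/e (2.39 ± 0.25). Falls included cutl-14 (-1.65 ± 0.20) and qua-1 (-1.56 ± 0.25) in tax-6 null and the lipocalin gene lpr-1 (-1.15 ± 0.13) in aak-2 o/e. The count of rises in tax-6 null was 5 without WT replicate 2 and 4 with no filter, and that in aak-2 o/e 3 without aak-2 o/e replicate 1.

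Relatives of mlt-10 were mostly dim, with 2 of 13 tested. Of these mltn-12 fell with mlt-10, reading 5.84, 5.31 and 4.64 in crh-1 null and 5.52, 6.40 and 6.41 in tax-6 null, against 9.16, 9.28 and 9.08 in WT. Those falls were -3.91 ± 0.30 (15-fold) and -3.06 ± 0.30 (8.34-fold). For aak-2 o/e the fall of mltn-12 was -0.94 ± 0.30 (adjusted p = 0.0325), a call that ended without WT replicate 1, 2 or 3 (adjusted p = 0.077, 0.093 and 0.0629) and without replicate 1 or 3 of aak-2 o/e (adjusted p = 0.112 and 0.0861). That call also ended with no filter (adjusted p = 0.106). The other, mltn-9, fell in tax-6 null (-1.33 ± 0.21) and also in aak-2 o/e (-0.91 ± 0.21) and did not pass in crh-1 null (-0.36 ± 0.21, adjusted p = 0.303). Furrow collagens, which pattern the annuli of the cuticle, fell in aak-2 o/e in 5 of 5 genes tested (median -1.07, led by dpy-7 at -1.12 ± 0.15). In tax-6 null 2 of 5 fell, dpy-7 (-0.52 ± 0.15) and dpy-2 (-0.55 ± 0.18). The dpy-2 call ended without WT replicate 1 or 3 or tax-6 null replicate 2 or 3 (adjusted p = 0.105, 0.0675, 0.0818 and 0.0956). It also ended with no filter (adjusted p = 0.0695) and with only these strains fitted (adjusted p = 0.0618). The dpy-2 range of tax-6 null overlapped that of WT. In crh-1 null 1 of 5 rose, dpy-9 (0.53 ± 0.17, adjusted p = 0.0443). Its call ended when any single array of crh-1 null, aak-2 o/e or WT was left out (adjusted p = 0.0534 to 0.136). It also ended with arrays centred on their medians (adjusted p = 0.0696), with no filter (adjusted p = 0.108) and with a replicate block (adjusted p = 0.0503). Of all genes 19.3% fell in aak-2 o/e, 26.3% fell in tax-6 null and 9.88% rose in crh-1 null. The part of the marker rol6 in the aak-2 o/e falls was not tested.

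**Figure D4:**
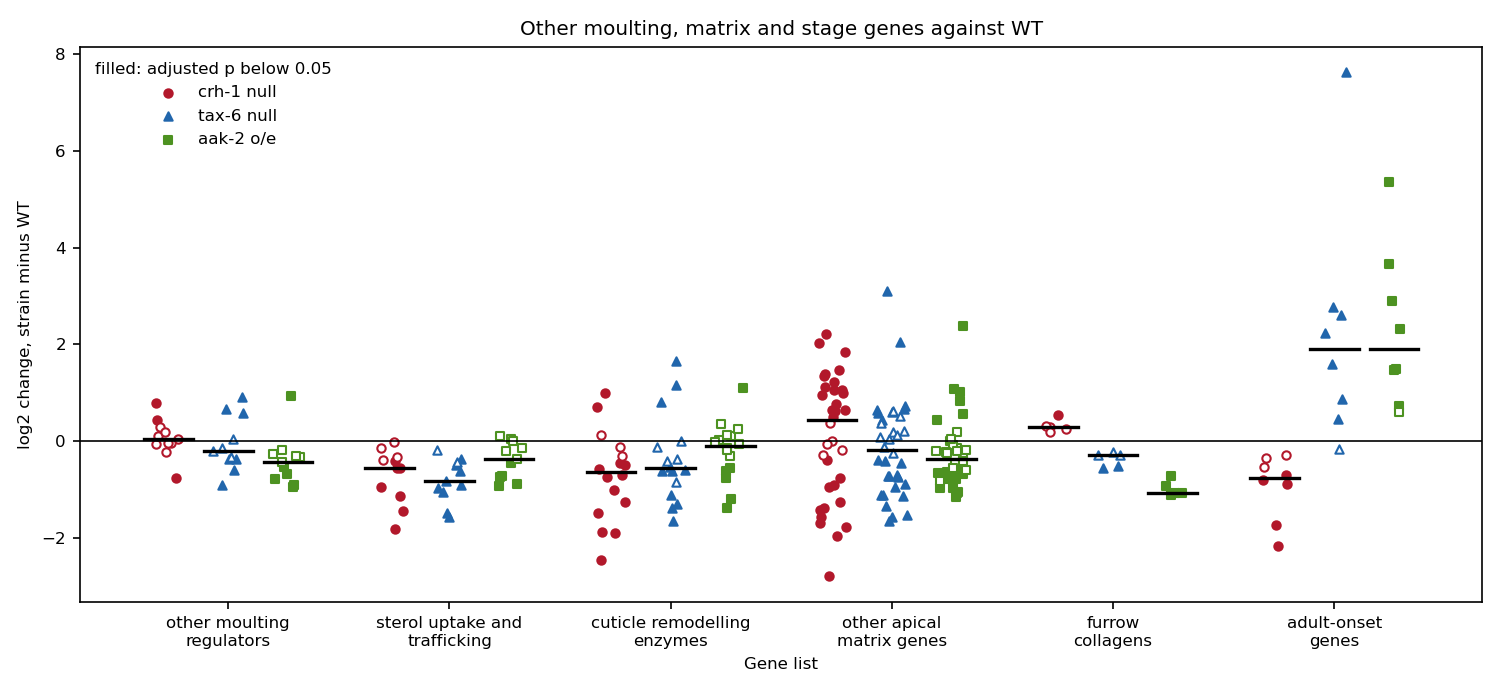
Change against WT (log2 scale) of every tested gene of 6 lists, by strain label, filled where the adjusted p was below 0.05, with a black bar at the median. Sterol uptake and trafficking genes lie at or below 0.11 in all strains, apical matrix genes spread to both sides, and adult-onset genes lie below 0 in crh-1 null, above it in aak-2 o/e and, but for 1 gene, above it in tax-6 null.

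Genes that switch on around the passage to adulthood moved with the strain labels, beside every result above. Of 8 such genes tested, 0 rose and 5 fell in crh-1 null, 7 rose and 0 fell in tax-6 null, and 7 rose and 0 fell in aak-2 o/e. Of all genes 10.7% fell in crh-1 null, 18.7% rose in tax-6 null and 14.2% rose in aak-2 o/e. Medians of the list were -0.76, 1.91 and 1.90, beside -0.01, -0.09 and -0.15 over all genes. The summed level of the 8 genes is the log2 of the sum of their linear values. It lay between 10.28 and 10.59 in crh-1 null and 13.24 and 13.55 for tax-6 null. In aak-2 o/e it was 13.76 to 14.14, against 11.25 to 11.49 in WT. The adult collagen gene col-19 read 4.34, 4.48 and 3.86 in crh-1 null, 12.31, 11.98 and 12.31 in tax-6 null and 10.31, 9.22 and 10.27 in aak-2 o/e, against 4.10, 5.25 and 4.34 in WT. The eggshell gene perm-4 changed by -2.17 ± 0.24 in crh-1 null and rose by 2.61 ± 0.24 in tax-6 null and 2.31 ± 0.24 for aak-2 o/e. Arrays of tax-6 null and those of aak-2 o/e both had adult-onset levels above WT and differed from each other in fbn-1, mlt-10 and bed-3, and in nhr-23 by its brighter probe set, as given above. Point in the larval stage and strain cannot be told apart in this design, since harvest hours are not given and harvest times allowed for strain differences.

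Markers of the tissues in the pools were checked in the same fits. The moulting genes are made mainly by epidermis. Of 10 epidermal markers 9 were tested, and ceh-16 was too dim. Their summed level lay between 13.35 and 13.57 in crh-1 null, 13.20 and 13.42 for tax-6 null and 13.29 and 13.51 for aak-2 o/e, against 13.16 to 13.49 in WT, so all 4 ranges overlapped. That sum was carried mostly by ifb-1, at 12.74 to 13.04 by strain mean. Without it the sum of the other 8 lay between 11.42 and 11.58 in crh-1 null, 11.47 and 11.80 for tax-6 null and 11.16 and 11.33 for aak-2 o/e, against 11.35 to 11.46 in WT, with aak-2 o/e below the other strains. The markers lin-26, elt-1, elt-3 and che-14 are also among the regulator and sterol genes above. Without these and ifb-1, 4 markers were left. Their sum lay between 10.33 and 10.59 in crh-1 null and 10.50 and 10.82 for tax-6 null. It was 10.22 to 10.53 for aak-2 o/e and 10.31 to 10.35 in WT. Here tax-6 null lay above WT, and the range of aak-2 o/e held that of WT. Among all 9 tested, 2 rose and 2 fell in crh-1 null, 3 rose and 2 fell in tax-6 null, and 1 rose and 2 fell in aak-2 o/e. These shares of 44.4%, 55.6% and 33.3% stand beside 20.6%, 45% and 33.5% of all genes. The part of these markers in the results was not tested.

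Pharyngeal markers, from a tissue that also sheds its lining at the moult, rose in 4 of 5 genes in crh-1 null and fell in 3 of 5 in aak-2 o/e, where 9.88% of all genes rose in crh-1 null and 19.3% fell in aak-2 o/e. Their summed level was 12.39 to 12.56 in crh-1 null, 11.83 to 12.00 for tax-6 null and 11.15 to 11.42 for aak-2 o/e, against 11.88 to 11.91 in WT. As for nhr-23, the arrays of crh-1 null were highest and those of aak-2 o/e lowest, and the part of these markers in the result was not tested. Neuronal markers rose in 3 of 7 genes in crh-1 null and 4 of 7 for tax-6 null and fell in 3 of 7 in aak-2 o/e, beside 9.88% and 18.7% of all genes that rose and 19.3% that fell. Their summed level was 12.74 to 12.81 in crh-1 null, 12.87 to 12.96 for tax-6 null and 12.11 to 12.38 for aak-2 o/e, against 12.60 to 12.71 in WT. None of these ranges overlapped, with aak-2 o/e lowest, and the part of these markers in the results was not tested. Intestinal markers gave 1 rise and 1 fall in crh-1 null, 1 rise and 3 falls for tax-6 null and 1 fall for aak-2 o/e among 7. Summed, the intestinal markers lay at 14.60 to 14.78 in tax-6 null and 14.61 to 14.71 for aak-2 o/e, below WT at 14.79 to 14.93. The sum in crh-1 null, 14.85 to 14.93, overlapped WT. Body wall muscle markers fell in 2 of 7 genes in tax-6 null and 2 of 7 for aak-2 o/e. At 15.18 to 15.51 the muscle sum in tax-6 null lay below that of WT, 15.60 to 15.76. It was 15.73 to 15.83 in crh-1 null and 15.55 to 15.62 for aak-2 o/e, both overlapping WT. Shares called among intestinal markers were 28.6%, 57.1% and 14.3%, among muscle markers 0%, 28.6% and 28.6% and among germline markers 0%, 25% and 37.5%, beside 20.6%, 45% and 33.5% of all genes. The neuronal marker unc-31 and the pharyngeal marker ceh-22 were too dim to test. Germline markers gave 1 rise and 1 fall in tax-6 null and 3 rises for aak-2 o/e among 8. Their sum was at least 13.84 on every aak-2 o/e array, above the WT range of 13.49 to 13.63. The germline sums of crh-1 null (13.41 to 13.54) and tax-6 null (12.80 to 13.62) overlapped WT. The part of the intestinal, muscle and germline markers in the results was not tested.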

How the data were processed

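The deposited log2 values cover 22625 probe sets and 12 Affymetrix arrays. Per the submitters' processing notes the authors used GCOS 1.4 and GCRMA, with settings not stated there. Probe set names came from GEO's annotation of the platform, with symbols updated by gene ID to the WBcel235 gene table: 20766 had 1 symbol (20701 of them with an ID found there), 887 several, 895 none, and 77 were controls. No coordinates or sequences are given. Probe sets ending in _s_at or _x_at can bind related transcripts.

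Control probe sets were left out. The 13396 probe sets with a log2 value of at least 4 on 3 or more arrays were fitted by lmFit and eBayes of limma 3.58.1 under R 4.3.3 (1 mean per strain over all 12 arrays, 8 residual and 3.63 prior degrees of freedom), two-sided, with Benjamini-Hochberg adjustment over all of them at 0.05. Each gene is represented by its brightest tested probe set, which gave 10365 genes. Calls of lists are counts over genes.

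The members, gene lists and rules for naming genes were chosen with earlier results of these data known. Named were all members and up to 4 genes per list and strain with the largest change past the threshold, and the 2 genes most like each member. Same-numbered arrays were checked for pairing, and of 18 pairs 1 had deviations from the strain mean correlated above 0.1. With 3 arrays per strain this check cannot exclude pairing. The labels give no day for the replicate numbers, so the arrays were fitted as unpaired.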

Additional observations from a re-analysis of the deposited data

How the results depend on the processing

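Of 882 values (42 member comparisons under 9 other settings and 12 fits without a single array), 841 kept their direction and their side of the threshold, 24 lost the call, 10 gained it and 7 turned sign. No sign turned in a called change except nhr-23 in tax-6 null, which was -0.10 with the mean of a gene's probe sets. The other turns were in changes near 0 that were never called. For fbn-1 in aak-2 o/e they were -0.06 with array weights and -0.19 with the mean of probe sets, with a range of -0.07 to 0.26 when single arrays were left out. For bed-3 in aak-2 o/e that range was -0.11 to 0.18, and for mlt-11 in tax-6 null against aak-2 o/e -0.09 to 0.21. The count of members called stayed within 1.5 times in every comparison. With the replicate block it was 4 in crh-1 null, 5 for tax-6 null and 3 for aak-2 o/e, each against WT, and the only member call it ended was nhr-23 in tax-6 null (0.39, adjusted p = 0.0558). Replicate numbers share no stated day or litter, so this fit is no paired analysis. Scaling by quantiles or medians moved the median gene by at most 0.06. Values near the lowest level, those of nhr-25 and of bed-3 in crh-1 null, have little signal over background. The other gene lists were run under the same settings, chosen after seeing the data. The cause of each change was not tested.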

Other observations

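Cuticle remodelling enzymes were tested in 16 genes. Of these, 2 rose and 11 fell in crh-1 null, 3 rose and 8 fell in tax-6 null, and 1 rose and 5 fell in aak-2 o/e, with medians of -0.64, -0.56 and -0.10. The shares called were 81.2% in crh-1 null, 68.8% for tax-6 null and 37.5% for aak-2 o/e, beside 20.6%, 45% and 33.5% of all genes, so the aak-2 o/e share is near that of all genes. The astacin protease gene nas-37, required to shed the old cuticle, fell in all 3 strains (-1.48 ± 0.16 in crh-1 null, -1.66 ± 0.16 for tax-6 null and -1.38 ± 0.16 for aak-2 o/e, 3 arrays against 3 with limma). Another astacin gene, nas-7, fell in crh-1 null (-1.87 ± 0.29) and rose in tax-6 null (1.16 ± 0.29) and also in aak-2 o/e (1.10 ± 0.29), the last not past the threshold with no filter on dim probe sets (adjusted p = 0.0503). In crh-1 null nas-6 (-2.46 ± 0.35) and the Kunitz inhibitor gene bli-5 (-1.91 ± 0.32) also fell, and bli-5 changed by -0.38 ± 0.32 in tax-6 null and 0.10 ± 0.32 for aak-2 o/e, which did not pass.

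The prolyl 4-hydroxylase genes dpy-18 and phy-2, whose enzymes modify collagens in the endoplasmic reticulum, changed by -1.30 ± 0.11 and -1.39 ± 0.18 in tax-6 null. In crh-1 null they changed by -0.45 ± 0.11 and -0.57 ± 0.18, and in aak-2 o/e by -0.02 ± 0.11, which did not pass, and -0.76 ± 0.18. The peroxidase gene mlt-7 went the other way in tax-6 null, at 8.55, 8.23 and 8.48 against 6.65, 6.83 and 6.82 in WT (1.65 ± 0.14, adjusted p = 2.82e-06). The astacin gene dpy-31, which processes collagens, fell in aak-2 o/e (-1.19 ± 0.14, adjusted p = 4.07e-05).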
